A study of Mus musculus with 12 samples.

Results

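The comparison set all 6 tumours that received muFAP-4-1BBL, an agonist of the costimulatory receptor 4-1BB carried to cells that display fibroblast activation protein, against all 6 tumours that did not. Its 6 agonist-treated libraries were 3 of the FAP41BBL group (agonist alone) and 3 of the RT_FAP41BBL group (radiotherapy plus agonist). Its 6 agonist-free libraries were 3 of the control group (no treatment named) and 3 of the RT group (radiotherapy alone), so the 12 libraries of the series were all used. Radiotherapy entered as a second factor, and the value given for a gene is the agonist change shared by both radiotherapy strata. Every tumour was of wild-type genotype and was grown from TS/A cells, a mouse breast carcinoma line, mixed with cancer associated fibroblasts. The labels name no dose, schedule, harvest time or animal, so the spread behind each p-value is that between these libraries and may in part be technical.

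4-1BB, encoded by Tnfrsf9, is a receptor of the TNF receptor superfamily that activated T cells and natural killer cells display. Its ligand, encoded by Tnfsf9, clusters the receptor, which recruits TRAF adaptors and switches on NF-kB, survival genes and effector functions. Fibroblast activation protein, encoded by Fap, is a surface protease of activated fibroblasts, and an agonist tethered to it is meant to engage 4-1BB only inside such stroma.

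Each library held 34076477 to 42067481 counts, with 35176469 to 42067481 in the agonist-free arm and 34076477 to 39069755 in the agonist-treated arm. Mitochondrial genes took 1.16% to 1.62% of the counts. Markers of the labelled tumour were uneven. Krt8 and Krt18, the paired keratins of glandular epithelium, lay between 231 and 437 and between 65.4 and 125 CPM (counts per 1000000 of the scaled library). Other epithelial markers were low: Epcam, an epithelial adhesion protein, lay between 0.0824 and 8.18 CPM, and the tight junction genes Cldn3 and Cldn7 had 0 to 10 and 0 to 2 counts in the agonist-free libraries. The summed CPM of 25 fibroblast and matrix genes lay between 13400 and 23900. Some libraries stood apart in genes of neighbouring tissue. The summed CPM of 24 skeletal muscle genes lay between 7320 and 16900 in the RT group, between 657 and 1210 in RT_FAP41BBL, between 70.3 and 761 in control and between 105 and 2500 in FAP41BBL. Keratinocyte and hair follicle genes summed to 547 CPM in control replicate 2 and to at most 68.3 in the other libraries.

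The agonist's target and receptor genes came first. Fap lay between 4.77 and 17.1 CPM in the agonist-free arm (median 10.5) and between 5.74 and 18.9 in the agonist-treated arm (median 7.21). Tnfrsf9 lay between 20.5 and 36.2 CPM without agonist (median 25.9) and between 25.4 and 36.9 with it (median 32.9), a log2 change of 0.28 ± 0.13 (SE; adjusted p = 0.393). Both arms overlapped for both genes. The 2 strata differed in value for Tnfrsf9: its log2 change was 0.59 without radiotherapy, where control read 20.5, 20.6 and 24.3 CPM and FAP41BBL 27.5, 34.2 and 36.9, and -0.03 with radiotherapy, where RT read 36.2, 27.5 and 29.4 and RT_FAP41BBL 25.4, 33.8 and 32. The difference between those changes did not pass (adjusted p = 0.213). Tnfsf9 lay between 9.57 and 15 CPM without agonist and between 10.2 and 13.6 with it, with a log2 change of -0.01 ± 0.11 that was 0.01 when libraries were scaled by their totals.

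Across the 17757 genes tested, none passed an adjusted p of 0.05 for the agonist main effect (0% called by edgeR's quasi-likelihood test, smallest adjusted p 0.0793). An unadjusted p under 0.05 was reached by 2367 genes (13.3%), of which 1578 were higher with the agonist (8.89%) and 789 lower (4.44%). The median log2 change over all genes was -0.01. The count differed between tools and models. limma's voom called 0 genes and DESeq2, in the same two-factor design, called 412 of 16264 (2.53%), 345 higher (2.12%) and 67 lower (0.412%). A model with the 4 groups kept apart, whose average over both strata asks for the same change, called 62 genes (0.349%), 39 higher (0.22%) and 23 lower (0.13%). Of these 62, 57 also passed for the agonist change with radiotherapy. Some had little change without it, such as Mss51 (log2 change -0.01 without and -3.24 with radiotherapy). A call in the average thus need not hold in both strata. Leaving out FAP41BBL replicate 3 gave 56 calls and leaving out RT_FAP41BBL replicate 2 gave 19, against 0 to 2 for each other library. No gene below passed the main test, and a call named for another tool or contrast holds for that one only. DESeq2 values are printed mostly for genes it called, while edgeR's main test and voom called 0. Tnfrsf9, named above, did not pass with DESeq2 (adjusted p = 0.333). The words "higher" and "lower" give the position of a gene's values.

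In 56 genes (0.315%) every agonist-treated library lay above every agonist-free library, and in 24 (0.135%) every one lay below. From the lists used here the first set held: Cd4, Cd2, Trac and Lck among T cell genes, Klrd1 and Klre1 among natural killer genes, Ltb and Cd27 among costimulatory genes, and Tox and Cd86 among checkpoint genes. It also held Ltf of the neutrophil list and Mag of the nerve list. The second held Tsc22d3 and no other listed gene.

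**Figure D1:**
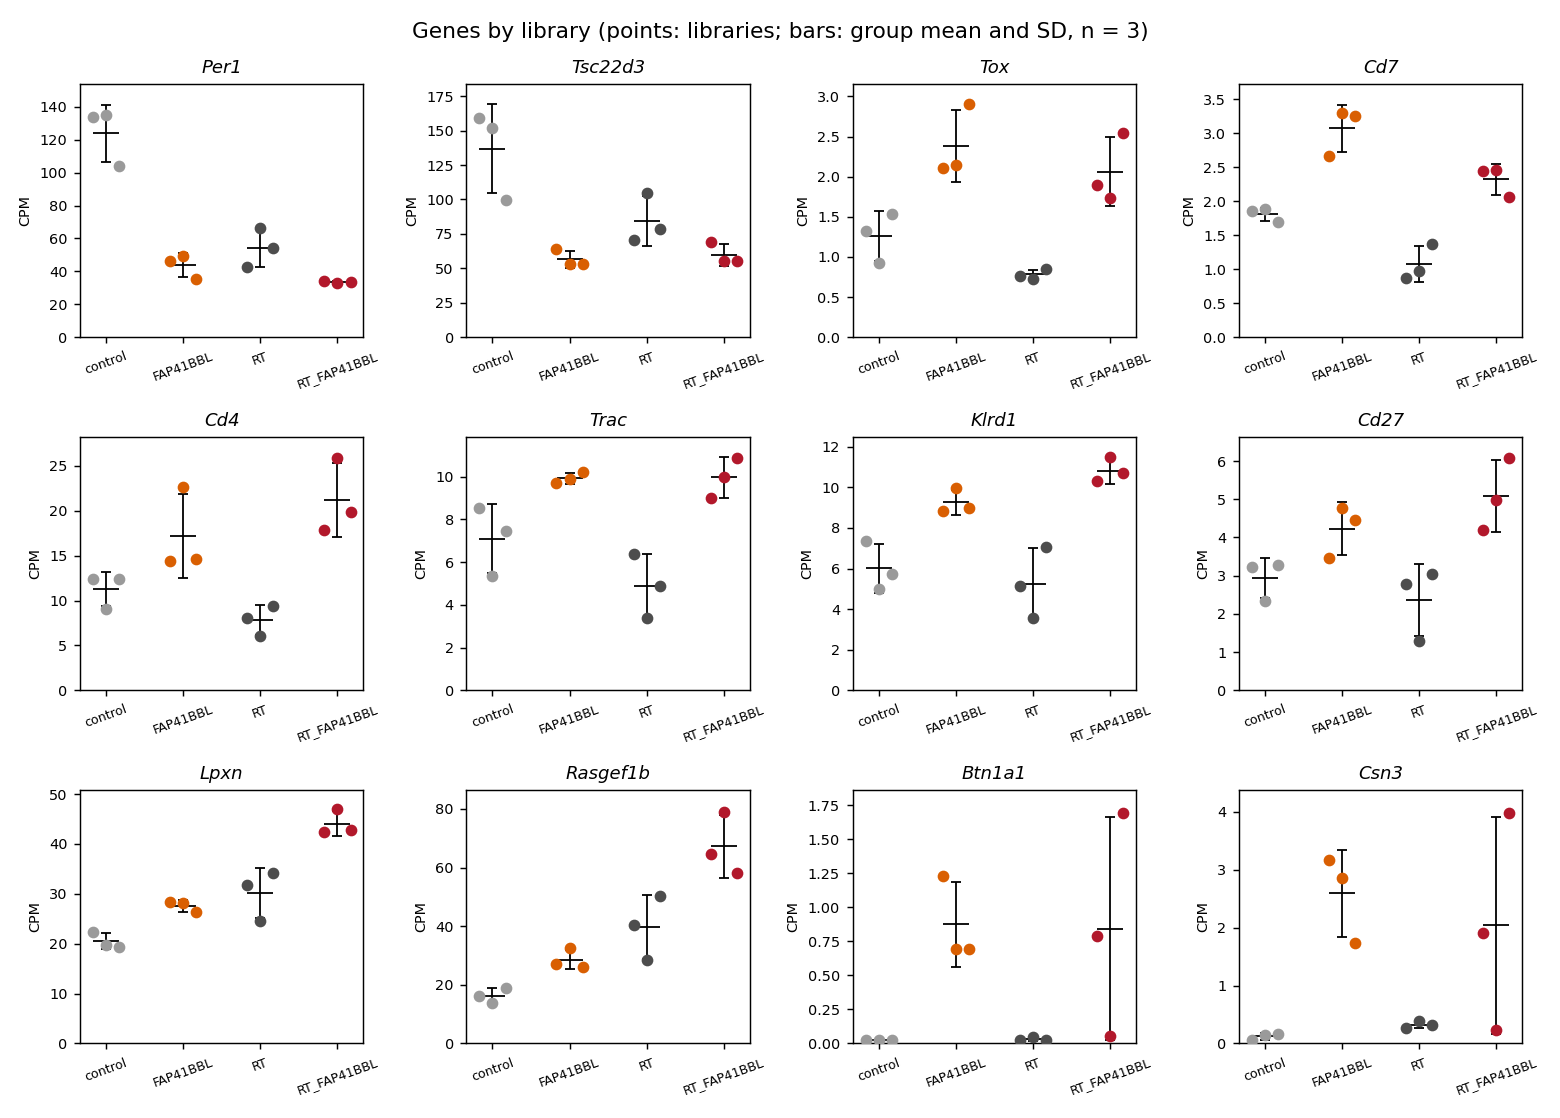
CPM of 12 genes in each library (vertical axis, from 0) by group (horizontal axis), with points for libraries and bars for the group mean and SD over 3 libraries. Per1 and Tsc22d3 were lower in both agonist groups, Tox, Cd7, Cd4, Trac, Klrd1 and Cd27 were higher in every agonist-treated library, and Btn1a1 and Csn3 were near 0 in the RT_FAP41BBL replicate 2 library.

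Gadl1 and Btn1a1 had the smallest p of all annotated genes, and Per1 came next. Per1 encodes a repressor of the circadian clock whose transcription is also known to be induced by glucocorticoids (chromosome 11, 68986043 to 69000786, GRCm39). It read 134, 135 and 104 CPM in control, 46.6, 49.5 and 35.6 in FAP41BBL, 42.7, 66.2 and 54.5 in RT, and 34.1, 32.7 and 33.7 in RT_FAP41BBL. The 3 control libraries were the highest of the 12, and in each stratum every agonist library lay below every library without agonist. Transcripts of clock genes are known to vary with the time of day, and the labels do not give the time at which each group was harvested, so its part in the values of Per1 and of other clock and glucocorticoid-response genes was not tested. The log2 change was -1.10 ± 0.16 (SE; adjusted p = 0.0918), and the average over strata in the model with 4 groups passed (adjusted p = 0.00531), as did DESeq2 (adjusted p = 3.89e-07). Within strata the change was -1.50 ± 0.17 without radiotherapy (adjusted p = 0.0141) and -0.70 ± 0.16 with it (adjusted p = 0.0303). No gene passed without radiotherapy when those 2 groups were fitted alone or control replicate 1 or 2 was left out, and none passed with radiotherapy when the skeletal muscle score was a covariate. The 2 changes differed at an unadjusted p of 0.00455 that did not survive adjustment over all genes (0.155).

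RefSeq's promoter table (GRCm38.p6, a build other than that of the counts) holds 2 windows for Per1, each from 250 bases before to 50 after an annotated start, and they are shown because Per1 was the one gene that passed in the unirradiated stratum. Capitals mark matches, on either strand, to any of 8 motifs: the E-box CACGTG, the D-box TTANGTAA, the CRE TGACGTCA, the GAS element TTCNNNGAA, AP-1 TGANTCA, and the longer consensus of the glucocorticoid response element, of the ISRE and of NF-kB. No match overlapped another.
Per1 at chr11:69098699-69098998, plus strand: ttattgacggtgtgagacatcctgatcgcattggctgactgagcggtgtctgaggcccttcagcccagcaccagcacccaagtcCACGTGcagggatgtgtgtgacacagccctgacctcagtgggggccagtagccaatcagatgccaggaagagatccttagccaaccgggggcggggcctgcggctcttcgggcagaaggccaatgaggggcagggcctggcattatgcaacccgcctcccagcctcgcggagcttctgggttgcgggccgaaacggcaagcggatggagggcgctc
Per1 at chr11:69099902-69100201, plus strand: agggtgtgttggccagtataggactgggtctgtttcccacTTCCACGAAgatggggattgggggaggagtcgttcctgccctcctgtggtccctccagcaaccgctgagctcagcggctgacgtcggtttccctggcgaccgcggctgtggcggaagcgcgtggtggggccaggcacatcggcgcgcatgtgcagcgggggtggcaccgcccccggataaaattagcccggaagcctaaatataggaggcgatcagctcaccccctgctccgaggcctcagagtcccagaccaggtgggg
The first window held an E-box, the element bound by the CLOCK and BMAL1 activators, starting 166 bases before its start site. E-boxes occurred in 7.15% of 32851 promoters of that length. The second held a GAS match starting 210 bases before its start site, a motif found in 8.3% of promoters. The glucocorticoid motif, found in 0.475% of promoters, was not among the letters of either window.

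Tsc22d3 (chromosome X, 139440277 to 139501408), which encodes the glucocorticoid-induced leucine zipper, followed a similar order. It read 159, 152 and 99.5 CPM in control, 63.7, 52.9 and 53.2 in FAP41BBL, 70.2, 105 and 78.4 in RT, and 69.1, 55.4 and 55.1 in RT_FAP41BBL. All 6 agonist-treated libraries lay below the lowest agonist-free library, and the nearest to each other were RT_FAP41BBL replicate 1 at 69.1 and RT replicate 1 at 70.2. The log2 change was -0.88 ± 0.17 (adjusted p = 0.121), and it passed in the average over strata (adjusted p = 0.0402) and with DESeq2 (0.000411). It was -1.27 without radiotherapy (adjusted p = 0.067) and -0.50 with it (0.138).

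In the main effect the lists of clock and glucocorticoid-response genes had medians near 0, with members past an unadjusted p of 0.05 in both directions. Of 24 clock genes, 3 were higher and 5 lower at an unadjusted p under 0.05, against 8.89% and 4.44% of all genes. Their median log2 change was 0. Leaving out 1 library gave 0 to 3 higher. The clock median was 0.17 without radiotherapy (6 higher, 2 lower) and -0.28 with it (1 higher, 9 lower). At the same threshold, 604 of all 17757 genes were higher and 314 lower without radiotherapy. With it 2097 were higher and 1989 lower. With radiotherapy 4 clock genes passed as lower, against 2.4% of all genes. Those calls were lost with the skeletal muscle score as a covariate. Wee1, a cell cycle kinase under clock control, lay between 27.4 and 39.8 CPM without agonist and between 26 and 29 with it (log2 change -0.29). Usp2, a clock-controlled deubiquitinase, lay between 13.2 and 28.6 without and between 11.3 and 15.2 with it (-0.40). Cry1, another clock repressor, had a log2 change of 0.28. Of 23 glucocorticoid-response genes, 3 were higher and 5 lower in the main effect, beside 8.89% and 4.44% of all genes, with a median of -0.07. Without radiotherapy 2 of the 23 were higher and 7 lower (median -0.03), against 604 and 314 of all 17757 genes. With it 1 was higher and 5 lower (median -0.07), against 2097 and 1989. Besides Per1 and Tsc22d3, Dusp1, a phosphatase of MAP kinases, had a log2 change of -0.46 (-0.80 without and -0.12 with radiotherapy), and Ddit4, an mTOR inhibitor, one of -0.41 (-0.69 and -0.12). Rgs2, a regulator of G protein signalling, went the other way, from 19.3 to 32.1 CPM without agonist to between 30.7 and 57.4 with it (0.76 ± 0.16, DESeq2 adjusted p = 0.00172).

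T cell genes had the largest share of higher members among the 34 lists. Of 24 T cell genes, 21 were higher at an unadjusted p under 0.05 and none lower, against 8.89% and 4.44% of all genes, and the median log2 change was 0.67 against -0.01 over all genes. DESeq2 called 9 of the 24 higher, against 2.12% of all genes it tested. These shares of all genes are the ones to set beside each main-effect list count below. The summed CPM of the list lay between 145 and 225 in the agonist-free libraries (median 210) and between 232 and 326 in the agonist-treated ones (median 284), without overlap. In bulk tumour RNA, more T cells and more RNA of these genes per T cell cannot be told apart. With a skeletal muscle score as a covariate 17 of the 24 were higher and the median was 0.58, and with each library left out in turn 18 to 22 were higher.

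Cd4, the coreceptor of helper T cells (chromosome 6), read 12.4, 9.06 and 12.4 CPM in control, 14.4, 22.6 and 14.6 in FAP41BBL, 8.04, 6.02 and 9.42 in RT, and 17.9, 25.9 and 19.9 in RT_FAP41BBL. The arms did not overlap, and the log2 change was 1.02 ± 0.20 (adjusted p = 0.104, 0.0402 in the average over strata, 0.000411 with DESeq2). Trac, the constant region of the T cell receptor alpha chain, lay between 3.37 and 8.53 CPM without agonist (median 5.85) and between 8.99 and 10.9 with it (median 9.94). Its log2 change was 0.76 ± 0.17 (DESeq2 adjusted p = 0.00505). Cd2, an adhesion receptor, was at 3.01 to 5.08 CPM without and 6.05 to 8.62 with the agonist (0.77 ± 0.16), and Lck, the kinase that starts T cell receptor signalling, at 7.84 to 12.9 without and 15 to 22.4 with it (0.65 ± 0.15).

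Cd8a, the coreceptor of cytotoxic T cells, followed a different course in the 2 strata. It read 19.6, 11.1 and 18.9 CPM in control against 16.1, 18.1 and 19.3 in FAP41BBL, a log2 change of 0.10. It read 11, 4.34 and 10.5 in RT against 18.2, 21.6 and 28 in RT_FAP41BBL, a log2 change of 1.39 (adjusted p = 0.0321), a call lost with the skeletal muscle score as a covariate. The difference between the strata did not pass (adjusted p = 0.23), and the main change was 0.75 ± 0.30 (adjusted p = 0.318, DESeq2 0.119).

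Cd7 and Tox, both genes of T and natural killer cells, were among the 10 smallest p. Cd7, a surface receptor of both cell types, read 1.85, 1.88 and 1.7 CPM in control, 2.67, 3.3 and 3.25 in FAP41BBL, 0.872, 0.97 and 1.37 in RT, and 2.45, 2.46 and 2.06 in RT_FAP41BBL, so the lowest agonist library exceeded the highest agonist-free one. Its log2 change was 0.93 ± 0.16 (adjusted p = 0.104, DESeq2 0.000112). Tox, a nuclear factor of chronically stimulated T cells, lay between 0.728 and 1.54 CPM without agonist (29 to 56 counts per library) and between 1.74 and 2.9 with it (65 to 100 counts). Its log2 change was 1.15 ± 0.19 (adjusted p = 0.104, DESeq2 0.000148), 0.92 without and 1.39 with radiotherapy.

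Natural killer and effector genes were also mostly higher. Of 18 natural killer genes, 13 were higher and none lower (median 0.59, DESeq2 calls 5). Of 25 cytotoxic and effector genes, 18 were higher and none lower (median 0.53, DESeq2 calls 6). Without FAP41BBL replicate 2 the counts of higher genes were 9 for the natural killer list and 11 for the cytotoxic and effector list. These lists share Klrd1 and other genes. Without radiotherapy 12 of the 25 cytotoxic and effector genes were higher and 0 lower at an unadjusted p under 0.05 (median 0.56). Of all 17757 genes, 604 were higher and 314 lower there. With radiotherapy 12 of the 25 were higher and 4 lower (median 0.44), against 2097 and 1989 of all genes. Klrd1, which encodes the CD94 subunit of natural killer receptors, lay between 3.57 and 7.35 CPM without agonist (median 5.42) and between 8.83 and 11.5 with it (median 10.1), a log2 change of 0.83 ± 0.16 (adjusted p = 0.11, DESeq2 0.000884). Klre1, a lectin-like receptor of natural killer cells, lay between 2.01 and 2.89 without and between 3.3 and 4.02 with the agonist (0.60 ± 0.14). Klra3 belongs to a family of near-identical genes whose reads can be shared, so its log2 change of 0.77 is uncertain.

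The effector molecules themselves overlapped between arms. Ifng, the gene of interferon-gamma, lay between 0.582 and 2.99 CPM without agonist (median 1.35) and between 1.81 and 4.82 with it (median 2.45). Its log2 change was 0.86 ± 0.33 (adjusted p = 0.286, DESeq2 0.151). Gzmb, a granzyme that shares reads with its family, lay between 14.2 and 75.3 CPM without and between 23.1 and 110 with the agonist. Its log2 change was 0.48 ± 0.22 (adjusted p = 0.384, DESeq2 0.235), or 0.27 without FAP41BBL replicate 2. Its level followed radiotherapy: 14.2 to 49.4 CPM in the 6 unirradiated libraries and 53.7 to 110 in the irradiated ones. Prdm1, the gene of Blimp-1, lay between 7.62 and 13.4 without and between 12.8 and 18.5 with the agonist (0.57 ± 0.13, DESeq2 adjusted p = 0.00953), and Srgn, the serglycin core of cytotoxic granules, had a log2 change of 0.37 ± 0.08.

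Genes of costimulatory TNF receptors and ligands, 4-1BB and its ligand among them, were higher in 12 of 18 cases and lower in none at an unadjusted p under 0.05 (median 0.50). Without FAP41BBL replicate 2, 8 of them were higher and 1 lower. Cd27, a receptor of naive and memory T cells, lay between 1.29 and 3.27 CPM without agonist and between 3.45 and 6.08 with it (0.81 ± 0.22). Ltb, a membrane lymphotoxin, lay between 6.06 and 11.9 without and between 12 and 20.3 with it (0.74 ± 0.18). DESeq2 called these 2 genes of the list. Tnfrsf18 (GITR), which regulatory and activated T cells carry, had a log2 change of 0.59 and 5 agonist libraries above all agonist-free ones.

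Below the receptor, 9 of 25 genes of 4-1BB signalling and NF-kB feedback were higher and none lower, and the median of the list was only 0.11. Nfkbiz, an inducible nuclear partner of NF-kB, lay between 46.2 and 80.6 CPM without agonist (median 51.1) and between 58.4 and 113 with it (median 96.4), a log2 change of 0.66 ± 0.12 (adjusted p = 0.104, DESeq2 0.000483). Rel, an NF-kB subunit, had a log2 change of 0.34 ± 0.08. Birc3, an inhibitor of apoptosis in the receptor's signalling complex, had 0.33 ± 0.08, and Nfkbid, another nuclear NF-kB partner, 0.46 ± 0.12. In each of these 4 genes, 4 or 5 agonist libraries lay above every agonist-free library.

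Checkpoint genes were higher in 16 of 22 cases and lower in none (median 0.46, DESeq2 calls 7). Cd274, the gene of PD-L1, read 66.1, 59.4 and 91.1 CPM in control, 93.6, 149 and 103 in FAP41BBL, 132, 64.4 and 145 in RT, and 149, 276 and 212 in RT_FAP41BBL. Every agonist library exceeded those without agonist in its own stratum, and the arms overlapped only across strata (0.79 ± 0.22, adjusted p = 0.185, DESeq2 0.019). Pdcd1lg2, the gene of PD-L2, lay between 1.19 and 7.95 CPM without agonist (median 3.02) and between 5.48 and 15.1 with it (median 8.57), a log2 change of 1.43 ± 0.38 (DESeq2 adjusted p = 0.00785). Ido1, an enzyme that degrades tryptophan, had 0.99 ± 0.30 (DESeq2 adjusted p = 0.0551), Icos 0.54 ± 0.14 and its ligand gene Icosl 0.43 ± 0.11.

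Of 14 genes of regulatory T cells, 8 were higher and none lower (median 0.41, DESeq2 calls 1 of the 13 it tested). Foxp3, their defining transcription factor, lay between 1.53 and 2.59 CPM without agonist (median 2.24) and between 2.29 and 4.58 with it (median 2.87). Its log2 change was 0.61 ± 0.21 (adjusted p = 0.25, DESeq2 0.117). Il10 had a log2 change of 0.55, or 0.33 with the muscle score as a covariate, and Ikzf2, the gene of Helios, 0.28 ± 0.07. B and plasma cell genes were mixed, 6 higher and 2 lower of 19, with 2 higher when either RT replicate 1 or RT replicate 2 was left out. Of the 19, 14 were above 0 (median 0.40), against 48.8% of all genes. Cd22 of B cells and the antibody heavy chain gene Ighm had log2 changes of 0.84 and 0.66. The 2 lower genes were Jchain, the joining chain of antibodies (-0.76), and Iglc1, an antibody light chain gene (-1.26). Iglc1 had only 8 to 20 counts per agonist-free library and 1 to 12 per agonist-treated one.

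**Figure D2:**
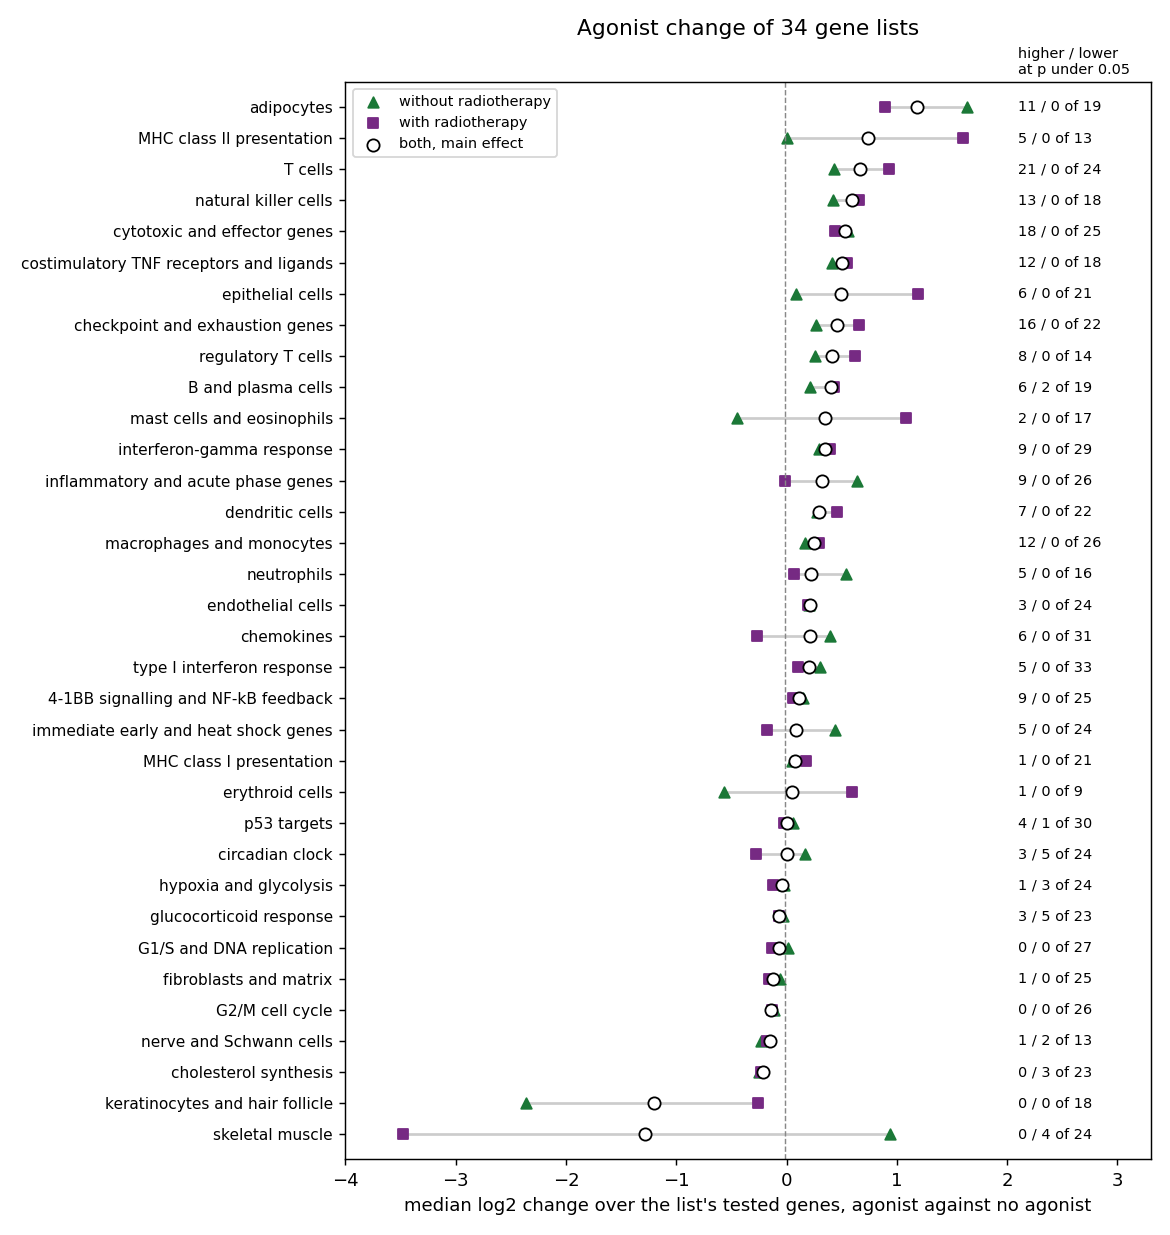
Median log2 change over the tested genes of each of 34 lists (horizontal axis), agonist against no agonist, for the main effect (circles), without radiotherapy (triangles) and with it (squares). The numbers at the right count genes with an unadjusted p under 0.05, the dashed line is the median of all genes, and the skeletal muscle list spans from 0.94 without radiotherapy to -3.48 with it.

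Myeloid and dendritic cell lists had smaller changes. Of 26 macrophage and monocyte genes, 12 were higher and none lower (median 0.25). Adgre1, the gene of the F4/80 antigen, lay between 136 and 291 CPM without agonist (median 161) and between 148 and 419 with it (median 267). Its log2 change was 0.53 ± 0.16 (DESeq2 adjusted p = 0.0584). Fcgr1, a high-affinity antibody receptor, had 0.40 ± 0.11. Of 22 dendritic cell genes, 7 were higher and none lower (median 0.29). Xcr1, the chemokine receptor of cross-presenting dendritic cells, lay between 2.09 and 5.74 CPM without and between 4.98 and 17.6 with the agonist (1.12 ± 0.33), and Clec9a of the same cells had 0.81 ± 0.27, which was 0.46 with the skeletal muscle score as a covariate and 0.57 without FAP41BBL replicate 2, its highest library. Xcr1 had log2 changes of 0.43 without radiotherapy and 1.80 with it. Sirpa, a receptor of macrophages and conventional dendritic cells, had 0.51 ± 0.12 (DESeq2 adjusted p = 0.0114).

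The 13 genes of MHC class II presentation had a high median, 0.74, that came from 1 stratum: 0 without radiotherapy and 1.6 with it. Their summed CPM lay between 4360 and 6190 in control, 5080 and 5550 in FAP41BBL, 1460 and 3690 in RT, and 4950 and 9560 in RT_FAP41BBL. The RT libraries were the low ones, and the agonist libraries of both strata lay within or above the control range. Of the list, 5 genes were higher at an unadjusted p under 0.05, among them Ctss, the protease that trims the class II invariant chain (0.61 ± 0.16). That count was 1 without control replicate 2 or RT replicate 2 and 8 without control replicate 1. None of the 13 differed between strata at an adjusted p of 0.05. The mouse class II and class I genes vary between strains, so single values are uncertain. MHC class I presentation had 1 of 21 genes higher and a median of 0.08.

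Interferon-gamma response genes were all above 0 in the main effect (29 of 29 against 48.8% of all genes), with a median of 0.35 and 9 genes at an unadjusted p under 0.05. Gbp8, an interferon-induced GTPase of a near-identical family, lay between 11.8 and 34 CPM without and between 30.1 and 65.8 with the agonist. Of 33 type I interferon genes, all were above 0, 5 had an unadjusted p under 0.05 and the median was 0.20. Within strata, 32 of these 33 were above 0 without radiotherapy (median 0.3) and 25 with it (median 0.1). With radiotherapy 0 of them had an unadjusted p under 0.05, against 2097 higher and 1989 lower of all 17757 genes. The main-effect counts of 9 and 5 moved with the libraries used. The first was 19 without RT replicate 1, 15 without RT_FAP41BBL replicate 1, 14 without FAP41BBL replicate 3, and 5 without control replicate 1 or 2, FAP41BBL replicate 2, RT replicate 2 or RT_FAP41BBL replicate 2. The second was 17 without RT_FAP41BBL replicate 3, 2 without control replicate 2 and 1 without FAP41BBL replicate 2 or RT_FAP41BBL replicate 2.

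Inflammatory and acute phase genes, cytokines and others, were higher in 9 of 26 cases and lower in none (median 0.32). Of these 26, 5 were higher without control replicate 2, RT replicate 2 or FAP41BBL replicate 3, the last of which also left 5 lower. Il1b, the gene of interleukin-1 beta, lay between 21.9 and 49.7 CPM without agonist (median 32.9) and between 48.4 and 86 with it (median 63.1), a log2 change of 0.91 ± 0.20 (DESeq2 adjusted p = 0.00198). Tnf lay between 2.72 and 16.6 without and between 5.57 and 30 with it (1.06 ± 0.24). Il12b, the shared subunit of interleukin-12 and interleukin-23, lay between 1.34 and 2.49 without and between 1.81 and 5.58 with it (1.18 ± 0.25). For Il12b and Il1b 5 of 6 agonist libraries lay above all agonist-free ones, and their changes in the 2 strata were 1.09 and 1.26, and 0.92 and 0.89. Of 31 chemokine genes, 6 were higher and none lower. Cxcl16, a membrane-bound chemokine, had 0.61 ± 0.18 (0.22 without and 1.00 with radiotherapy).

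Immediate early and heat shock genes were higher in 5 of 24 cases, with a median of 0.09 that was -0.01 without control replicate 1. Fos lay between 22.5 and 58.7 CPM without and between 38.2 and 57.7 with the agonist (0.54 ± 0.15, 0.87 without and 0.22 with radiotherapy), and Fosb had 0.88 in both strata. Proliferation genes gave no count: none of 26 G2/M genes and none of 27 G1/S genes had an unadjusted p under 0.05. Their medians were -0.14 and -0.07, and 0 of the 26 and 4 of the 27 were above 0, against 48.8% of all genes. Without RT replicate 1, the library lowest in Mki67, 11 of the G2/M genes were lower. Mki67, a marker of cycling cells, lay between 198 and 451 CPM without agonist (median 406) and between 305 and 405 with it (median 355). Of 23 cholesterol synthesis genes, 3 were lower and none higher (median -0.21), among them Dhcr7 with -0.22 ± 0.07. The count of lower genes was 15 without FAP41BBL replicate 1, 7 without RT replicate 3, 6 without RT_FAP41BBL replicate 3 and 1 to 4 without each other library.

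Stromal lists gave few counts, beside 8.89% of all genes higher and 4.44% lower. Of 25 fibroblast and matrix genes, 1 was higher, Thy1, which T cells express as well, and none lower (median -0.12). Without FAP41BBL replicate 3, the library highest in Fap, 8 were lower. Endothelial genes were higher in 3 of 24 cases (median 0.21), or 7 without RT replicate 3 and 0 without FAP41BBL replicate 3, among them Kdr, a VEGF receptor (0.33 ± 0.13), and Pecam1 (0.39 ± 0.16).

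Of the 10 smallest p, 2 belonged to genes of milk proteins, and 3 genes of the neutrophil and epithelial lists are set beside them. Btn1a1, the gene of the milk fat protein butyrophilin (chromosome 13), read 0.0281, 0.0257 and 0.0275 CPM in control and 0.0264, 0.0485 and 0.0249 in RT, which is 1 or 2 counts per library. It read 1.23, 0.694 and 0.696 in FAP41BBL and 0.79, 0.0536 and 1.69 in RT_FAP41BBL, with 2 counts in replicate 2 of that group and 24 to 63 in the others. The log2 change was 4.68 ± 0.67 (adjusted p = 0.0851, 0.0402 in the average over strata, 6.62e-06 with DESeq2). Csn3, the gene of the milk protein kappa-casein, lay between 0.0561 and 0.388 CPM without agonist (2 to 16 counts) and between 1.74 and 3.97 in 5 agonist libraries, with 0.241 in RT_FAP41BBL replicate 2 (3.39 ± 0.58). Ltf, the gene of lactoferrin, which neutrophils and glands make, lay between 0.0529 and 0.232 without and between 0.321 and 6.27 with the agonist. Cldn7, a tight junction gene, lay at 0 to 0.0561 without and at 0.0268 to 0.858 with it, and Krt7, a keratin of ducts, at 0.247 to 0.798 without and 0.616 to 2.92 with it. In all 5 genes RT_FAP41BBL replicate 2 was the lowest agonist library. The 21 epithelial genes as a whole summed to a median of 568 CPM without agonist (404 to 685) and 484 with it (424 to 586), most of it from Krt8, while their median log2 change was 0.49.

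Adipocyte genes shared this library pattern in part. Of 19 adipocyte genes, 11 were higher and none lower (median 1.18). With each library left out in turn 9 to 15 were higher, and 16 with the muscle score as a covariate. Without radiotherapy 13 were higher and 0 lower (median 1.64), against 604 and 314 of all 17757 genes. With it 3 were higher and 1 lower (median 0.89), against 2097 and 1989. Pparg, the master regulator of fat cells that macrophages also express, lay between 3.76 and 9.55 CPM without and between 4.91 and 16.5 with the agonist (0.78 ± 0.18, DESeq2 adjusted p = 0.00505). Lipe, a lipase of fat cells, lay between 17.9 and 30.1 without and between 28.5 and 45.4 with it (0.61 ± 0.14), and Scd1, a fatty acid desaturase, between 114 and 281 without and between 127 and 614 with it (1.18 ± 0.36). The summed CPM of the list lay between 778 and 1620 without agonist and between 821 and 1960 with it. RT replicate 3 was the high library of the agonist-free arm and RT_FAP41BBL replicate 2 the low library of the other. How much neighbouring fat and gland entered each sample was not tested.

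The remaining small p at the lower side rested on the RT group. Gadl1, a decarboxylase gene expressed in muscle, read 1.22, 1.04 and 1.22 CPM in RT and 0 to 0.103 in the other 9 libraries (-3.83 ± 0.52, adjusted p = 0.0793). Bex1 read 1.51, 1.67 and 1.92 in RT and at most 0.509 elsewhere, and Hoxc10, a homeobox gene of posterior body regions, 0.634, 0.898 and 0.997 in RT and at most 0.103 elsewhere. In these genes the value shared by both strata averages a low level in 3 groups and a high one in RT, and the muscle genes moved with it: Myl2, a light chain of slow muscle, read 7.96, 9.49 and 16.6 CPM in RT and at most 0.281 elsewhere. No keratinocyte gene of 18 had an unadjusted p under 0.05, and their median of -1.20 was 0.16 without control replicate 2.

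The other lists were mixed or small, beside 8.89% of all genes higher and 4.44% lower. Of 16 neutrophil genes 5 were higher (median 0.22), among them Csf3r, the receptor of the granulocyte growth factor, which lay between 24 and 60.4 CPM without and between 29.8 and 84.7 with the agonist (0.72 ± 0.17). Of 17 mast cell and eosinophil genes 2 were higher, Ear2 of eosinophils (1.88 ± 0.49) and Kit, the stem cell factor receptor (0.69 ± 0.22). Ear2 had 186 counts in FAP41BBL replicate 3 and 25 to 41 in the other agonist libraries, and its change was 1.17 without that library. Kit passed with radiotherapy (1.08 ± 0.27, adjusted p = 0.0407), but not with the muscle score as a covariate. Of 30 p53 targets 4 were higher and 1 lower (median 0), with log2 changes of 0.44 ± 0.10 for Btg2, which restrains growth, and 0.26 ± 0.12 for Cdkn1a, the gene of the p21 cell cycle inhibitor. Of 24 hypoxia and glycolysis genes 1 was higher, the glycolytic regulator Pfkfb3 (0.46 ± 0.14), and 3 lower, among them Aldoa, an aldolase of muscle and other tissue (-0.31 ± 0.11, or -0.18 with the muscle score as a covariate). Epithelial genes were higher in 6 of 21 cases, or 13 without control replicate 2. Of 24 skeletal muscle genes 4 were lower, or all 24 without FAP41BBL replicate 3, 7 without control replicate 3, and 2 without control replicate 1 or any 1 of the RT_FAP41BBL libraries. Erythroid genes had 1 of 9 higher, or 0 without RT replicate 1 or 2, and nerve and Schwann cell genes 1 higher and 2 lower of 13. Such small counts moved by a few genes with the libraries used: with each left out in turn, 2 to 7 p53 targets were higher (7 without RT replicate 3, 2 without RT replicate 2) and 0 to 4 lower (4 without FAP41BBL replicate 3), 1 to 5 hypoxia genes were lower (5 without FAP41BBL replicate 1, 1 without RT replicate 1), and 1 to 4 nerve genes were lower (4 without FAP41BBL replicate 3).

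Besides those described above, the higher genes among the 10 smallest p were Rasgef1b and Lpxn. Rasgef1b is a Ras exchange factor gene, and Lpxn is the gene of leupaxin, an adhesion adaptor of blood cells. Rasgef1b read 16.2, 13.9 and 18.9 CPM in control, 27.1, 32.4 and 26.2 in FAP41BBL, 40.5, 28.4 and 50.2 in RT, and 64.8, 79.1 and 58 in RT_FAP41BBL. In each stratum all agonist libraries were above the others, and the changes were 0.81 and 0.76 (0.78 ± 0.13 together, DESeq2 adjusted p = 0.000107). Lpxn lay between 19.4 and 34.1 CPM without and between 26.3 and 47 with the agonist (0.49 ± 0.08, DESeq2 adjusted p = 0.000184).

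**Figure D3:**
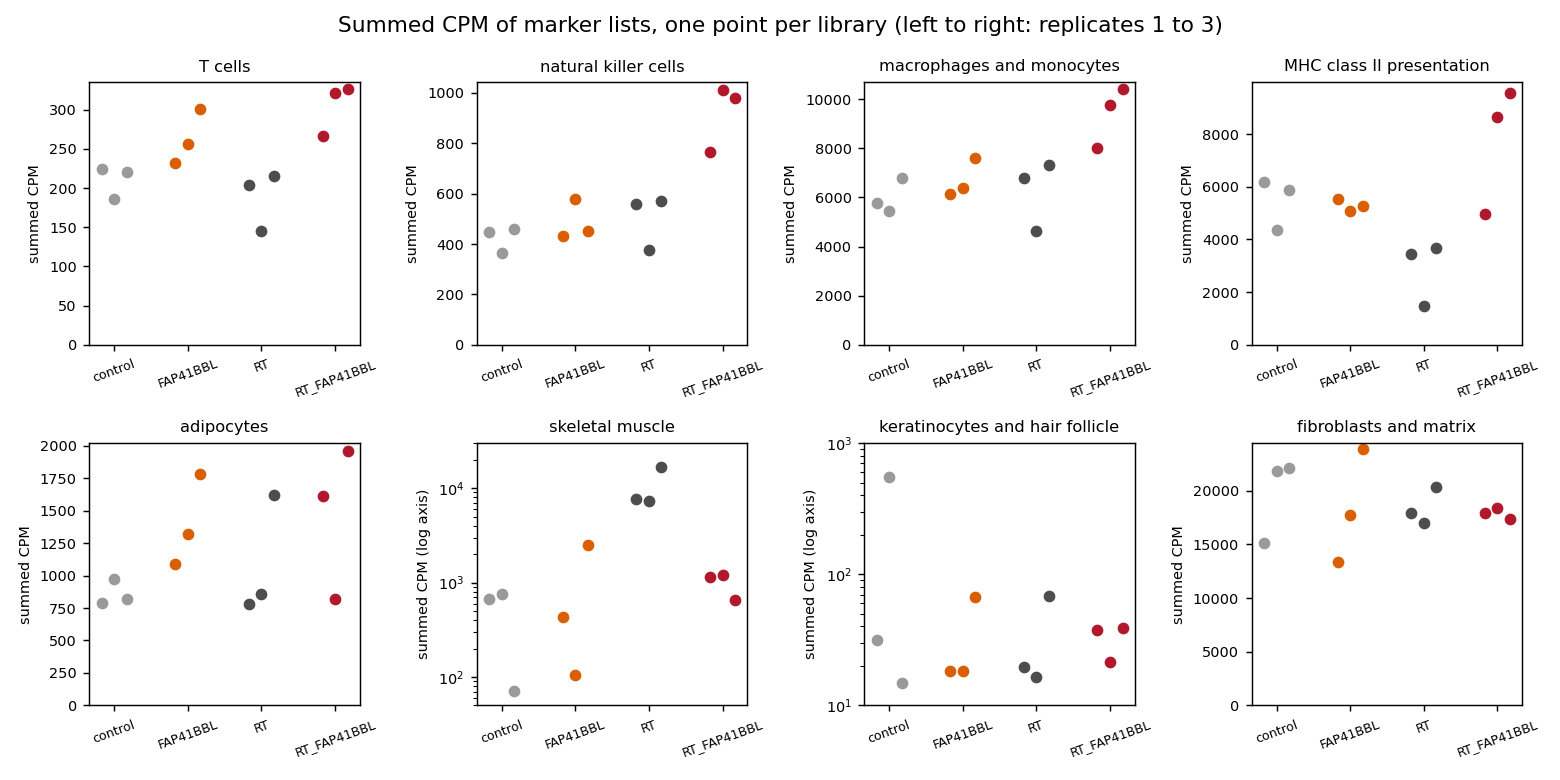
Summed CPM of 8 marker lists (vertical axes, from 0 except the 2 logarithmic panels) in each library, by group. T cell sums lay between 232 and 326 in agonist libraries and at most at 225 in the others, while the skeletal muscle sums set the RT group apart and the keratinocyte sum control replicate 2.

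The main effect assumes a similar change in both strata, and the strata were examined for this. Without radiotherapy 1 gene passed, Per1 (0.00563%), and 918 had an unadjusted p under 0.05 (5.17%). DESeq2 called 48. With radiotherapy 1022 genes passed (5.76%), 596 higher (3.36%) and 426 lower (2.4%). That count was 0 with the skeletal muscle score as a covariate, a score that separates the RT libraries from the RT_FAP41BBL libraries. It was 448 without RT replicate 1, 303 without RT replicate 2 and 2305 without RT replicate 3, and 462, 205 and 70 without RT_FAP41BBL replicates 1, 2 and 3. The 2 strata share no library. Over all 17757 genes their log2 changes had the same sign in 52.7% and a Pearson r of 0.01 across genes, which are not independent replicates.

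Some lists had medians of the same sign in both strata, mostly larger with radiotherapy, and others did not. The T cell median was 0.43 without and 0.93 with radiotherapy, with 23 of 24 genes of the same sign, and 9 of the 24 rose past the adjusted threshold with radiotherapy (against 3.36% of all genes) and 0 without it. These calls were also lost with the muscle score as a covariate. Natural killer medians were 0.42 and 0.66 (6 of 18 rose with radiotherapy), and checkpoint medians 0.27 and 0.66 (6 of 22). Interferon-gamma response medians were 0.29 and 0.39. Cytotoxic and effector medians were 0.56 and 0.44, and type I interferon medians 0.3 and 0.1. Inflammatory and acute phase genes had 0.64 and -0.01, chemokines 0.39 and -0.27, and immediate early genes 0.44 and -0.18. Clock genes had 0.17 and -0.28, and mast cell and eosinophil genes -0.45 and 1.08.

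**Figure D4:**
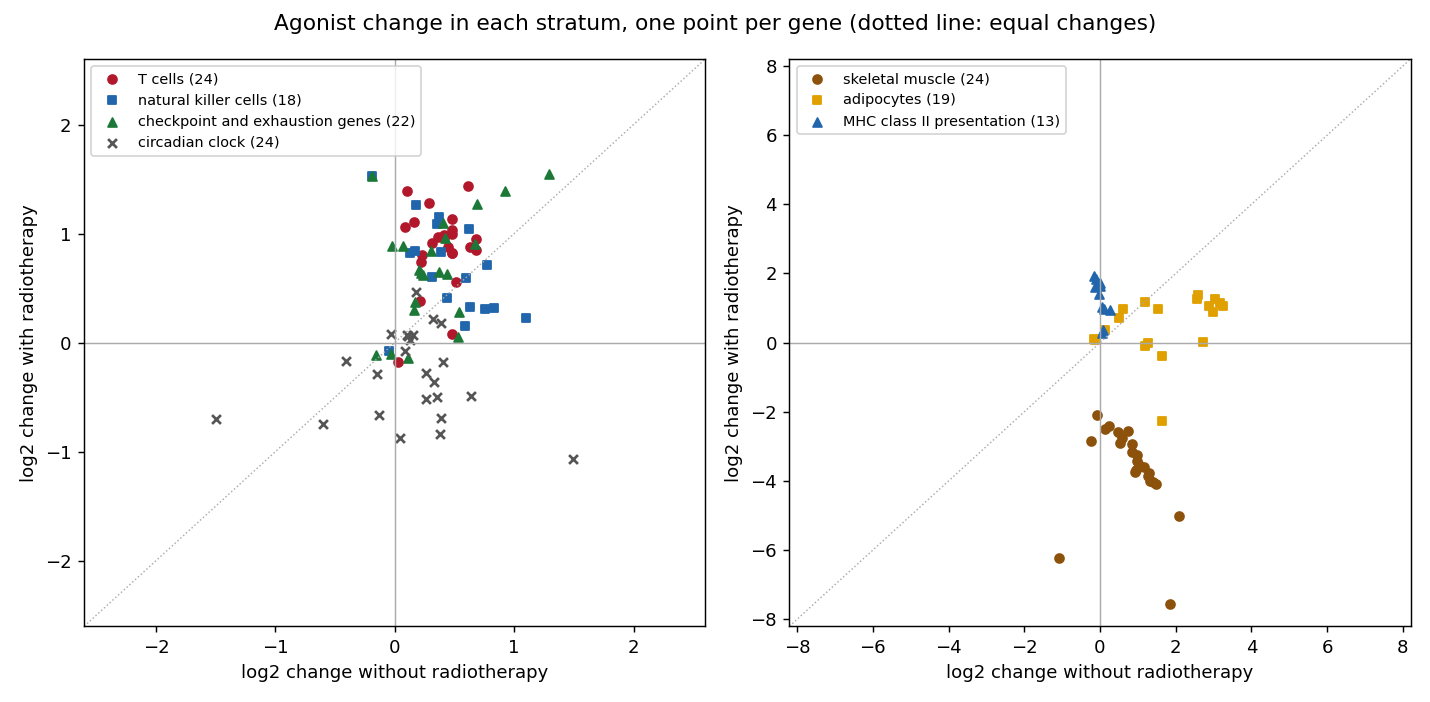
Log2 change with the agonist without radiotherapy (horizontal axis) and with it (vertical axis), 1 point per gene; the dotted line marks equal changes. Most T cell, natural killer and checkpoint genes lay above 0 in both strata, MHC class II genes lay near 0 without radiotherapy, and the 24 skeletal muscle genes lay below 0 with radiotherapy.

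The difference between strata passed for 27 genes (0.152%), 5 higher (0.0282%) and 22 lower (0.124%), 633 with DESeq2 and 0 with the muscle score as a covariate. It was also 0 without any 1 of the RT_FAP41BBL libraries. The count was 269 without RT replicate 3, 104 without FAP41BBL replicate 2, 1 without control replicate 2 and between 6 and 17 without each other library. For such genes the main effect describes neither stratum. Mss51, a muscle gene of mitochondrial metabolism, read 14.3, 13.4 and 21.3 CPM in RT and between 1.4 and 2.39 in all other libraries. Its log2 change was -0.01 without radiotherapy and -3.24 with it (adjusted p of the difference 0.0117). Igfn1, another muscle gene, read 12.5, 9.46 and 17.3 in RT and at most 0.255 elsewhere (0.66 and -6.00). Hsph1, a heat shock chaperone, read 177, 236 and 188 in RT, 78.5, 86.9 and 87.9 in RT_FAP41BBL, 104, 97 and 79.8 in control, and 160, 122 and 103 in FAP41BBL (0.46 and -1.25).

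The other 3 genes named for the difference had RT as a low group. Sla, an adaptor that dampens antigen receptor signalling, read 89.2, 86.5 and 85.5 CPM in control, 50, 67.4 and 43.2 in FAP41BBL, 29.8, 39.3 and 45 in RT, and 87.3, 88.3 and 90.7 in RT_FAP41BBL. Control and RT_FAP41BBL thus met at one level, with each single treatment below it (-0.70 and 1.22, adjusted p of the difference 0.0154). Cyp26b1, which degrades retinoic acid, had the same order, with 9.75 to 16 in control, 5.26 to 7.26 in FAP41BBL, 3.03 to 7.35 in RT and 16.7 to 19.9 in RT_FAP41BBL (-0.97 and 1.97). Slc13a3, a dicarboxylate transporter, had log2 changes of -0.31 and 2.25, with 1.24 to 2.22 CPM in RT and 8.22 to 9.52 in RT_FAP41BBL.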

How the data were processed

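RNA of 12 tumours was sequenced as stranded mRNA libraries in read pairs, per the labels' protocols. The authors deposited 1 file of unnormalized counts per library. Per the file headers, featureCounts 1.6.0 summed reverse-stranded read pairs over the exons of each GENCODE M33 gene. The submitters' processing notes name FastQC 0.11.8, STAR 2.7.9a and the GRCm39 build. Symbols came from a GENCODE table by gene identifier and covered 51948 of 56884 genes.

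In edgeR 4.0.16 (R 4.3.3), filterByExpr over the 4 groups left 17757 genes, TMM scaled the libraries, and the robust quasi-likelihood test of agonist, with radiotherapy as a second factor, gave p-values adjusted by Benjamini-Hochberg over all genes at 0.05. Per-stratum changes and their difference came from a model with the 4 groups. CPM are counts per 1000000 of the TMM-scaled library. SE are of the log2 change. Alternatives were RLE and library-total scaling, no filter, a replicate block, a skeletal muscle score as a covariate, the non-robust fit, the average of strata, limma 3.58.1 voom, DESeq2 1.42.0 and leaving out each library. The scripts were tested on simulated data. Total counts of 34076477 to 42067481 per library set the precision, and the closest pair of libraries of a group differed by 19 times sampling noise (chi-square per degree of freedom), so none was counted as a copy.

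Genes were named by rule: up to 4 of smallest p per list, 10 of smallest p overall among annotated genes, the 6 of smallest p for the difference (mean log2 CPM 1 or more), and Fap, Tnfrsf9, Tnfsf9, Per1, Cd8a, Gzmb, Ifng, Foxp3, Cd274 and Mki67. The non-overlapping genes, Krt8 and genes named beside these were chosen after their values were seen. The rule, the lists and the comparison were chosen with earlier results of these data known. Members of near-identical families (granzyme, Klra, Gbp, MHC genes) can share reads. The 34 lists are those of the plot of list medians. The 154 named genes include 107 with a RefSeq promoter.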

Additional observations from a re-analysis of the deposited data

Results flagged for a closer look

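In each arm of 6 libraries, the gap of the highest or lowest library to its nearest neighbour was compared with Dixon's 95% critical value, for 19 genes in both arms (38 tests, of which chance flags about 1 in 20). It was passed by 4. Fap stood at 18.9 CPM in FAP41BBL replicate 3, above the other agonist libraries. Mki67 stood at 198 CPM in RT replicate 1, below the other agonist-free libraries. Btn1a1 stood at 0.0485 CPM in RT replicate 2, which is 2 counts against 1 in the other agonist-free libraries. Hoxc10 stood at 0.0804 CPM in RT_FAP41BBL replicate 2, which is 3 counts.

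A further 6 genes had an agonist change that differed between strata at an adjusted p under 0.05 (edgeR's quasi-likelihood test). The log2 change with radiotherapy minus that without was -3.22 for Mss51, 1.92 for Sla, -1.70 for Hsph1, -6.65 for Igfn1, 2.95 for Cyp26b1 and 2.56 for Slc13a3. None of these passed with the skeletal muscle score as a covariate, a setting with 0 calls. That score was itself higher in every RT library than in the other libraries, and its part in these differences was not tested.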

How the results depend on the processing

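The count of genes past an adjusted p of 0.05 for the main effect, 0, was 0 with RLE scaling, library totals, the replicate block, the muscle score, the non-robust fit and voom, 9 without the low-count filter, 62 for the average of strata and 412 with DESeq2, and 0 to 56 with 1 library left out. The unadjusted count of 2367 was 1523 with the muscle score and 1646 to 3256 with 1 library left out. Without radiotherapy the count of 1 was 9 without the filter, 2 with the muscle score, 0 from those 2 groups alone, 48 with DESeq2 and 0 to 5 with 1 library left out. With radiotherapy the count of 1022 was 0 with the muscle score, 2063 with DESeq2 and 70 to 2305 with 1 library left out. The difference, 27, was 17 with library totals, 102 without the filter, 9 with the replicate block, 0 with the muscle score, 633 with DESeq2 and 0 to 269 with 1 library left out. Replicate numbers did not pair the samples: 5 of 18 same-numbered pairs had a correlation of deviations over 0.1 (range -0.34 to 0.43), 3 of them the FAP41BBL and RT pairs (0.31, 0.18 and 0.43), and 6 of 12 libraries lay closest to their own number. Of the single genes, 14 values changed sign, each from a log2 change that had not passed: Tnfsf9 gave 0.01 with library totals, 0.04 with the muscle score and -0.09 to 0.06 with 1 library left out. With the muscle score Fap gave 0, Sla -0.17 and Cyp26b1 -0.01. With 1 library left out Dmkn gave -1.76 to 0.03, changing sign without control replicate 2, Epor -0.02 to 0.18, changing sign without FAP41BBL replicate 3, and Mki67 -0.21 to 0, losing its sign without RT replicate 2. The cause was not tested. Another 3111 gene values kept their direction and side of the threshold and 103 came to pass it. List medians moved beyond their spread in 3 of 714 cases: neutrophils to 0.57 and skeletal muscle to 0.17 with the muscle score, and clock genes to -0.11 without FAP41BBL replicate 3. The muscle score was the mean log2 CPM of the skeletal muscle list itself, so the shift of that list's median was built in.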
